A study of Mus musculus with 15 samples.

Results

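The nuclear genes for the subunits of the oxidative phosphorylation machinery were followed through plasma cell differentiation in culture and under inhibition of EZH2. The members were the genes whose symbol begins with Nduf plus a subunit letter and number, is Sdha to Sdhd, or begins with Uqcr, Cox4 to Cox8, or Atp5, and that had reads in at least 3 of the 15 deposited columns. Of 84 symbols that fit this pattern, 82 were members, out of 21669 genes with a symbol. *Cox8c*, with reads in 2 columns, and *Cox7b2*, with none, were left out. The members comprised 35 genes of complex I, 4 of complex II, 8 of complex III, 18 of complex IV and 15 of complex V, the ATP synthase. *Atp5s* and *Atp5sl* share the ATP synthase prefix but their products are not subunits of the enzyme, and they are given apart. Beyond the need for reads in at least 3 columns, the rule used symbols and not levels. 

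CD43- splenic B cells of naive female C57BL/6J mice were sequenced directly (nB) or cultured for 3 days with LPS, IL2 and IL5 and then sorted into CD138+ plasmablasts (Pb) and B220+GL7+CD138- cells, the activated B cells (actB). The labels of the GSK343-treated Pb libraries name Il6 in place of Il5. Cultures held either DMSO or 2 μM GSK343, an inhibitor of the histone methyltransferase EZH2, so that the 5 groups were nB, actB DMSO, actB GSK343, Pb DMSO and Pb GSK343, with 3 libraries each. The mice were between 6 and 9 weeks old, and poly(A) RNA was read with a stranded kit.

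Oxidative phosphorylation takes place in the inner mitochondrial membrane. Complex I takes electrons from NADH and complex II from succinate, ubiquinone carries them to complex III, cytochrome c carries them to complex IV, and complex IV passes them to oxygen. Complexes I, III and IV pump protons, and complex V uses the resulting gradient to make ATP. Most subunits are encoded in the nucleus and the remainder in mitochondrial DNA. The mitochondrial genes were not analysed here. Naive B cells are small resting cells, and activation brings growth and division before antibody secretion begins.

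Each library held 19421830 to 26307413 reads counted to genes, so that 3 reads, the limit that a count of 0 allows, corresponded to 0.114 to 0.154 RPM (reads per 1000000 counted). nB replicates 1 and 2 differed by less than the sampling noise of their reads and were counted as 1 library, which leaves n = 2 for nB. The study describes the libraries as biological replicates, but the labels do not say whether each replicate number is an animal of its own, so p-values measure the spread between these libraries. Levels are given in RPKM, RPM per kilobase of gene length. The summed level of 6 B cell markers was 3374 to 3499 RPKM in nB, 1850.0 to 2138 in actB DMSO and 922 to 942 in Pb DMSO, and that of the 5 listed plasmablast markers with values was 169 to 185, 327 to 339 and 1412 to 1538. These sums thus followed the sort, but not every marker rose from nB to actB DMSO. *Sdc1* was at 5.17, 0.665 and 29.7 RPKM in nB, actB DMSO and Pb DMSO, and *Irf4* at 119.7, 109.5 and 371.9. The 4 markers of activated, dividing cells summed to 19.9 to 23.7, 513 to 546 and 451 to 492 RPKM. Of these *Mki67* was higher in Pb DMSO (281.5) than in actB DMSO (183), and the others were highest in actB DMSO. The nB libraries also carried T and NK cell markers (24.1 to 26.1 RPKM against 0.136 to 0.308 in actB DMSO, 7 markers), myeloid markers (194 to 239 against 4.12 to 5.44, 7 of 8 in the table) and erythroid and platelet markers (32.2 to 139 against 9.39 to 13.1, 5 of 6 in the table). The myeloid markers *S100a8* and *S100a9* had no reads in any cultured library. The part of these other cells in the differences from nB was not tested, and in bulk samples fewer cells of a type and less RNA per cell cannot be told apart.

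Promoters of the members are shown first, because the respiratory subunits are a textbook set of targets of nuclear respiratory factors. RefSeq promoter sequences (GRCm38.p6, 250 bases before to 50 after each start) were matched for 68 of the 82 members, with 74 promoters. The NRF1 letters, GCGCA and GCGC with any 1 base (N) between them and read on both strands as were all motifs here, occurred in 24.3% of the 74 and in 4.6% of all 32851 promoters of this length. The ETS letters CCGGAAG, which the factor GABPA can bind, occurred in 21.6% against 8.86%, and the YY1 letters ATGGCGG in 17.6% against 4.05%. CCAAT was found in 41.9% against 37.4% and TATAAA in 9.46% against 13.6%. None of these counts was tested, and a match is not a shown binding site. The 4 members with more than 1 match to the NRF1 letters on either strand came from complexes I to IV and are printed 5′ to 3′ with the matched letters in capitals. *Ndufb4* encodes an accessory subunit of complex I, *Sdha* the flavoprotein of succinate dehydrogenase, *Uqcrc1* a core protein of complex III and *Cox6a1* the ubiquitous form of a complex IV subunit.
Ndufb4, chr16:37654319-37654618, minus strand: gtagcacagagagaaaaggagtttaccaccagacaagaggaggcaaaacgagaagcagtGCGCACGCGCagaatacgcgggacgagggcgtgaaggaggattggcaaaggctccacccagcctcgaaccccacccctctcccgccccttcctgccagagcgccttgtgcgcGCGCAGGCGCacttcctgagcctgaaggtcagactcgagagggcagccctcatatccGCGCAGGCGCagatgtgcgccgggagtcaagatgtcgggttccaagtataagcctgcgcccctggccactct
Sdha, chr13:74350191-74350490, minus strand: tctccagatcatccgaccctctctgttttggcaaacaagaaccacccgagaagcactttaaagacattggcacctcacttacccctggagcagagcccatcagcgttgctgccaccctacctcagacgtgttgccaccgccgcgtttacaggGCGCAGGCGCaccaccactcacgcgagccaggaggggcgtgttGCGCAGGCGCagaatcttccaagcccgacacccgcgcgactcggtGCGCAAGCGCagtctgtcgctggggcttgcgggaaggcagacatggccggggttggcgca
Uqcrc1, chr9:108936398-108936697, plus strand: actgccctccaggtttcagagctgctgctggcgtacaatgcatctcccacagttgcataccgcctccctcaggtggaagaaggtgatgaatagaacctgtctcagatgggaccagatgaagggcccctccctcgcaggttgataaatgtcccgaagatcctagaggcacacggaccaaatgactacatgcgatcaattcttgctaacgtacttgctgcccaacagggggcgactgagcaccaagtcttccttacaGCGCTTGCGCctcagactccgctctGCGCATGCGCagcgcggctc
Cox6a1, chr5:115348909-115349208, minus strand: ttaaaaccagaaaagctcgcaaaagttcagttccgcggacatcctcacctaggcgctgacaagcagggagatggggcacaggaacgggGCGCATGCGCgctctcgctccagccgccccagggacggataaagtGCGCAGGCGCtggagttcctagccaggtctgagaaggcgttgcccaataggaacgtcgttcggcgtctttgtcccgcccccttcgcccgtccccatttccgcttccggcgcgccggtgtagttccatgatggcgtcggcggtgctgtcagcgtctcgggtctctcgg
Among members with a promoter entry, the median log2 fold change of actB DMSO against nB was 0.66 for the 17 with the NRF1 letters and 0.64 for the 50 tested without. Between Pb DMSO and actB DMSO the medians were 0.24 and 0.05. At that step they were 0.21 with and 0.003 without the ETS letters, and -0.02 and 0.07 for the YY1 letters. For CCAAT they were 0.03 and 0.06, and for TATAAA 0.05 and 0.03. These are descriptions without a test. *Atp5a1*, *Cox4i1*, *Cox4i2*, *Cox6a2*, *Cox6c*, *Ndufa2*, *Ndufa4l2*, *Ndufb9*, *Ndufs1*, *Sdhc*, *Uqcrb*, *Uqcrc2* and *Uqcrq* were among those with no entry.

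Together the 82 members took 0.579% of reads in nB (0.578 to 0.581, n = 2), 0.898% ± 0.0645 (SD, n = 3) in actB DMSO, 0.919% ± 0.0550 in actB GSK343, 0.901% ± 0.0557 in Pb DMSO and 0.949% ± 0.0301 in Pb GSK343. Every cultured library lay above both nB libraries, and the 4 cultured groups overlapped one another. To test single genes, log2(RPKM + 0.25) was fitted with limma over all 11299 genes that reached 1 RPKM in at least 3 columns, and p-values were adjusted by Benjamini-Hochberg over all of them, with calls at an adjusted p under 0.05. Of the 82 members 81 passed this filter, the exception being *Cox8b*. The mean level was lowest in nB for 75 of the 81, a share that was not counted over all genes.

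**Figure D1:**
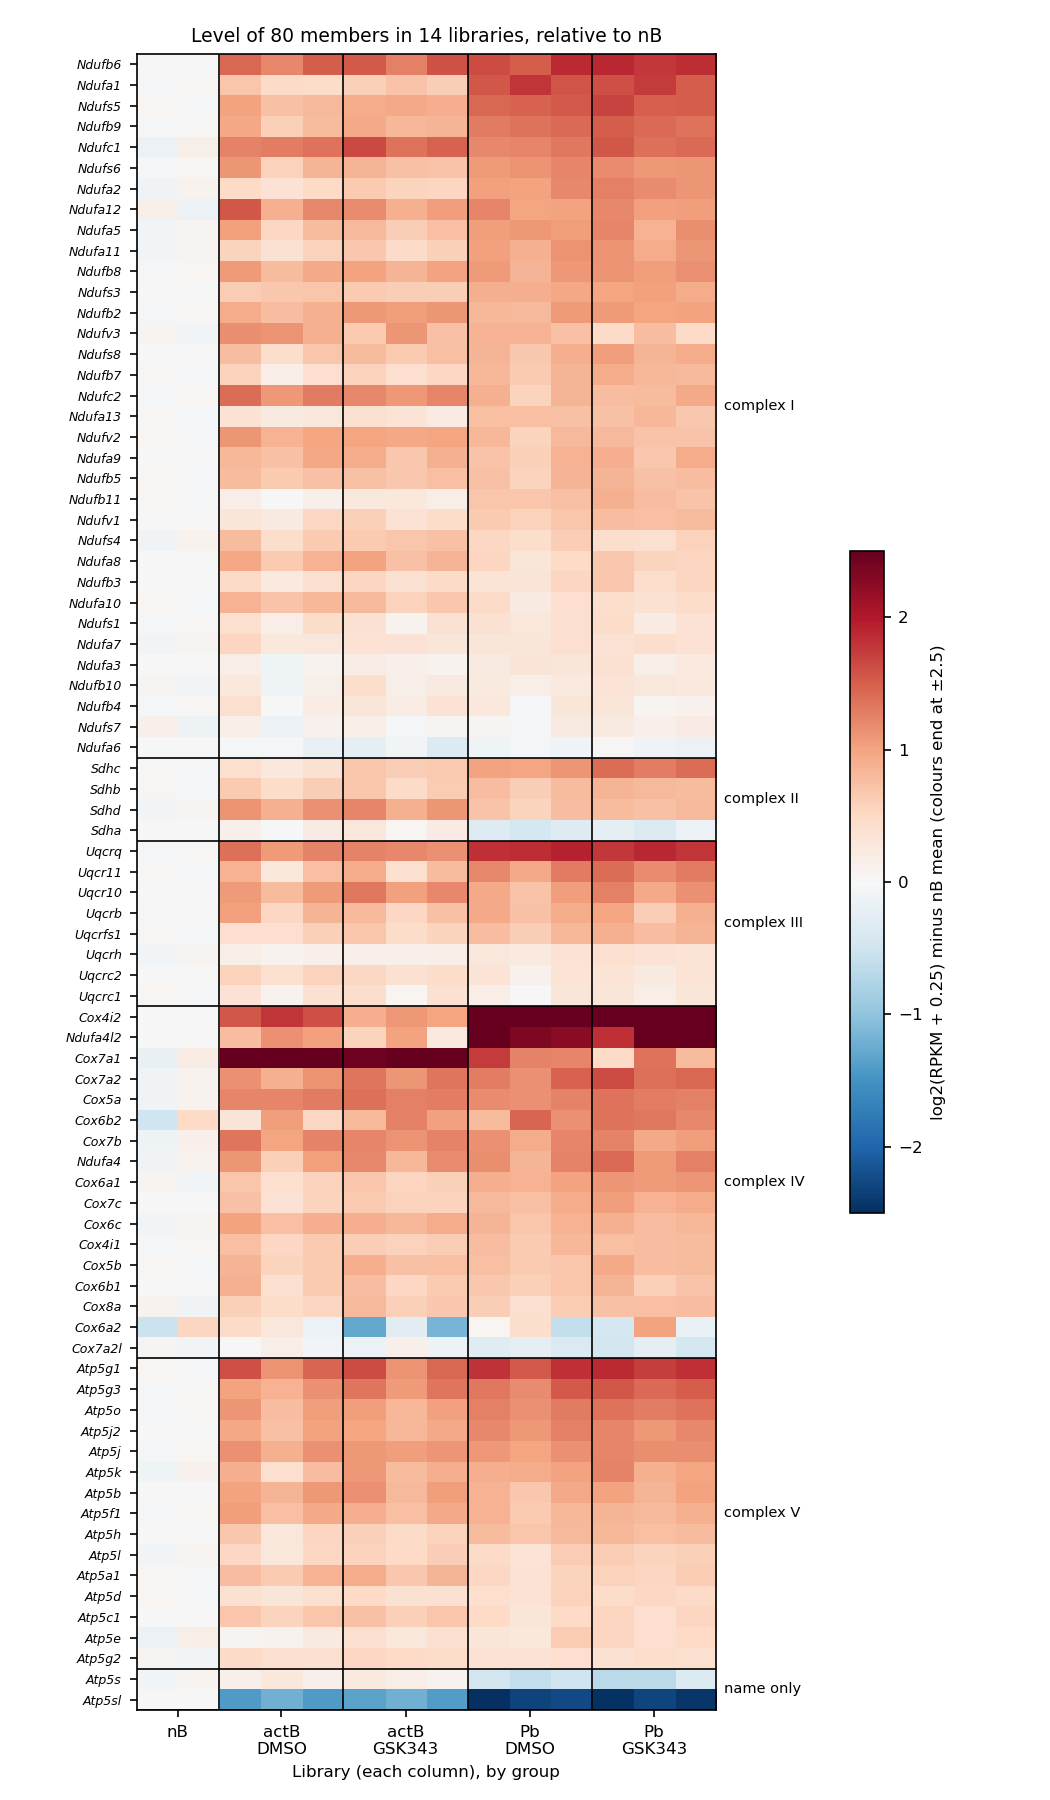
Level of 80 members in the 14 libraries, as the difference of log2(RPKM + 0.25) from the member's mean in nB, with colors ending at ±2.5, with members in rows ordered by complex and libraries in columns ordered by group. Most rows are above the nB level in every cultured group, *Atp5sl* is below it, *Cox4i2* is highest in Pb and *Cox7a1* in actB.

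Activation was compared first, as actB DMSO against nB. The nB cells were sequenced without culture, DMSO or the sort, so activation cannot be told apart from these in comparisons with nB. Of the 81 members tested, 66 were higher (40.9% of all genes tested were higher), 1 was lower (36.3% of all genes) and 14 were not called. The median log2 fold change of the members was 0.65, against 0.05 over all genes tested. Of the members 79 of 81 values were above 0, against 5932 of 11299 over all genes tested. By complex, 29 of 35 members of complex I were higher (median 0.63), 3 of 4 of complex II (0.46), 6 of 8 of complex III (0.57), 14 of 17 of complex IV (0.68) and 14 of 15 of complex V (0.76). The groups did not overlap for any of the 67 called members or for 5 not called. How often this held over all genes was not counted, so it is not read as a trait of the members. The one lower member was *Atp5sl*. 

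Pb and actB were both sorted after 3 days of culture. Words such as step, rise and fall between them compare sorted fractions and do not follow cells over time. The step from actB DMSO to Pb DMSO split the members. Here 27 were higher (27.3% of all genes tested), 14 lower (42.4% of all genes) and 40 not called. The median was 0.05, against -0.12 over all genes tested. In complex I 13 were higher and 5 lower, in complex II 1 and 2, in complex III 4 and 1, in complex IV 4 and 2 and in complex V 5 and 2. With the replicate number as a block, since same-numbered cultured libraries deviated together, 35 were higher (30.1% of all genes) and 18 lower (46.1%), with 12 calls gained and none lost. Scaling to the median gene, which moves the median of all genes from -0.116 to -0.00484, gave 38 higher and 10 lower, and edgeR with RLE factors 36 and 10. Removing each library's trend with gene length gave 24 and 19 with a median of -0.03, and leaving out actB DMSO replicate 2 gave 23 and 17 with a median of -0.01, so that the direction of the median depends on these choices.

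From naive cells to plasmablasts (Pb DMSO against nB), 71 of the 81 members were higher (39.5% of all genes tested) and 4 were lower (41.1% of all genes), with a median of 0.77 against -0.02. All 15 subunits of complex V were higher (with the length trend removed *Atp5g2* turned to -0.012), as were 31 of 35 of complex I, 7 of 8 of complex III, 15 of 17 of complex IV and 3 of 4 of complex II. The 4 lower members were *Atp5sl*, *Atp5s*, *Sdha* and *Cox7a2l*. The 3 comparisons of stages share their libraries and are not independent of one another.

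**Figure D2:**
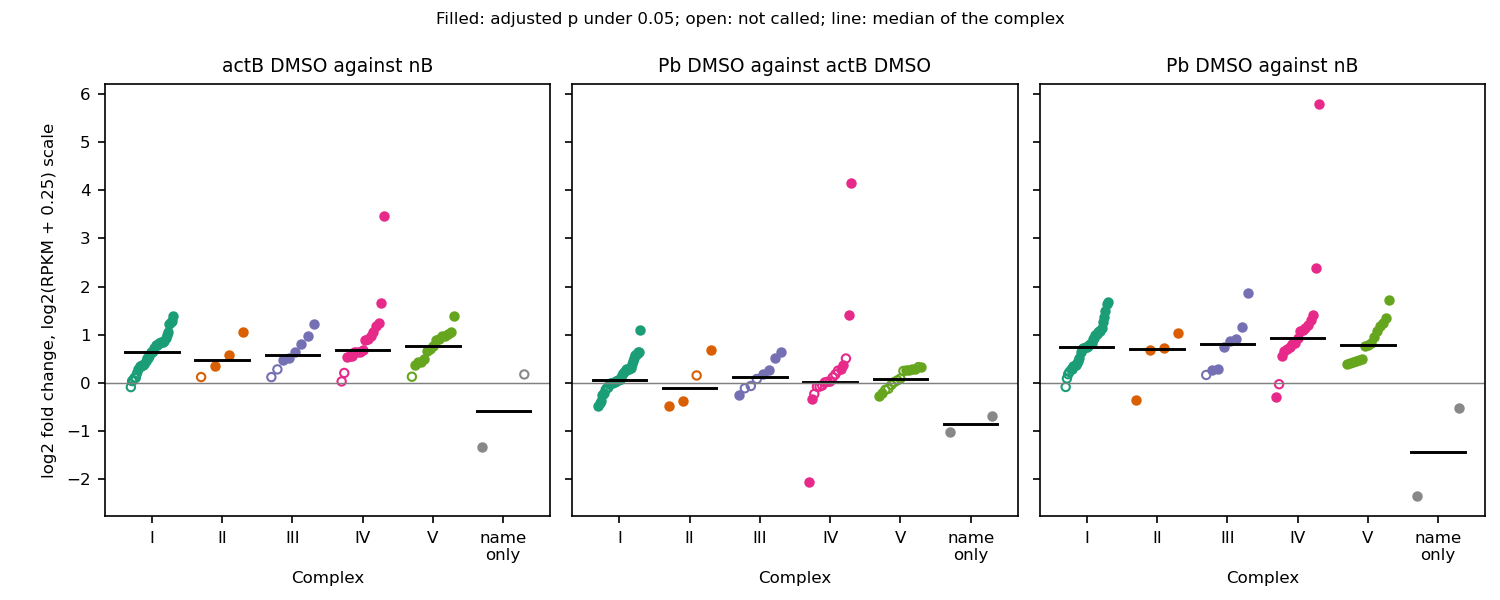
Log2 fold change of each member in the 3 comparisons of stages, by complex, 1 point per member (filled where called), with a line at the median of each complex. Most points of actB DMSO against nB and of Pb DMSO against nB lie above 0 in each complex, and those of Pb DMSO against actB DMSO lie on both sides.

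The members are short genes, with a median length of 754 bases against 3357 over all genes tested, and 52 of 81 were at most 1000 bases long against 873 of 11299. Short genes outside the members also had higher values in the cultured cells. Other genes of over 600 and up to 1000 bases had a median log2 fold change of 0.32 for actB DMSO against nB, -0.05 for Pb DMSO against actB DMSO and 0.31 for Pb DMSO against nB, while the 25 members of that length had medians of 0.79, 0.25 and 1.07. In the 27 members of up to 600 bases the medians were 0.65, 0.05 and 0.87, against 0.32, -0.02 and 0.24 in other genes. In the 21 members of over 1000 and up to 2000 bases they were 0.57, -0.12 and 0.68, against 0.21, -0.10 and 0.12. Between actB and Pb the members thus stood above other genes in the shorter classes and slightly below them in this one, as did the 6 members of over 2000 and up to 4000 bases (-0.20 against -0.15). With each library's trend with length removed, 60 members were higher and 7 lower in actB DMSO against nB (median 0.43), and 60 and 9 in Pb DMSO against nB (median 0.48). What part of the remaining values length accounts for was not tested.

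**Figure D3:**
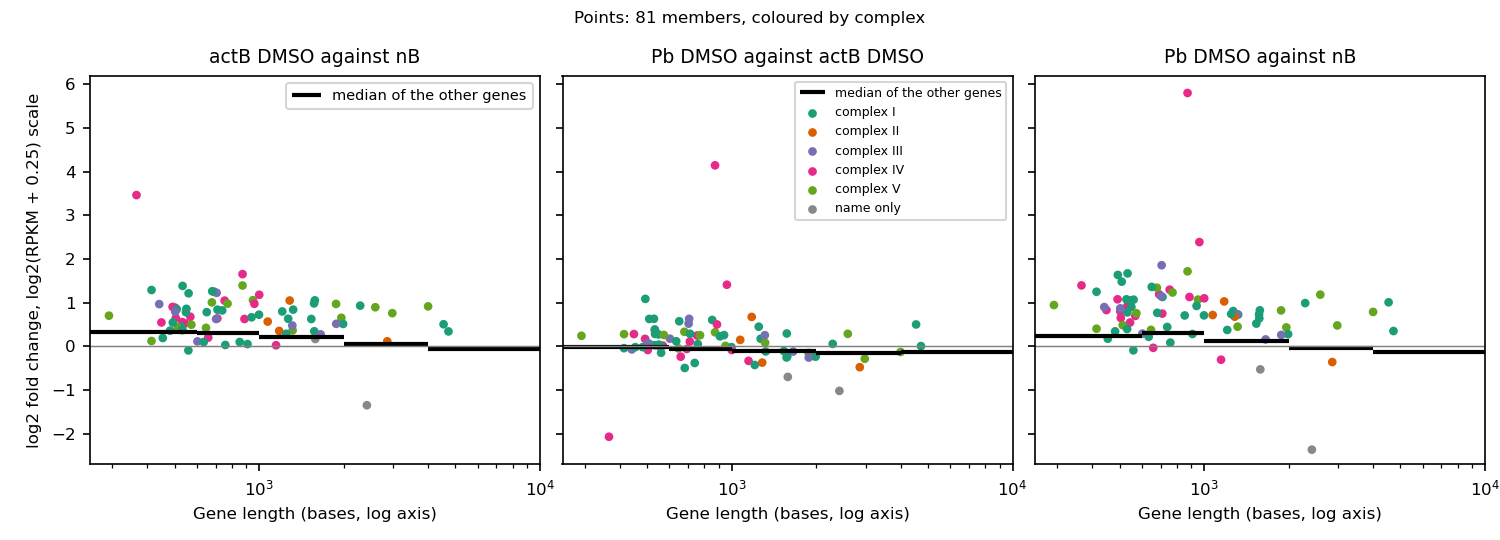
Log2 fold change of the members against gene length in bases on a log axis, 1 point per member colored by complex, with the medians of all other genes in classes of length drawn as lines. Members lie mostly above the line in actB DMSO against nB and in Pb DMSO against nB, and short genes outside the members lie above 0 there as well.

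In complex I, the 7 core subunits carry the flavin and the iron-sulfur clusters through which electrons pass, or the ubiquinone site. After activation 6 of the 7 were higher (40.9% of all genes tested), and between actB and Pb they went both ways. *Ndufv2*, an iron-sulfur protein of the NADH-binding module, had 40.7 and 38.02 RPKM in nB, 84.9, 72.3 and 77.7 in actB DMSO and 70.1, 58.4 and 68.8 in Pb DMSO. It was lowest in nB without overlap and rose by 0.99 ± 0.08 (SE) on the log2 scale with activation (adjusted p = 2.24e-07). It then changed by -0.25 in Pb (adjusted p = 0.00811, and 0.0808 with -0.14 under median scaling). *Ndufs3*, part of the module that connects to ubiquinone, had 63.9 and 65.5 RPKM in nB, 101, 103 and 104 in actB DMSO and 122, 121 and 127 in Pb DMSO. The 3 groups stood in this order without overlap, with log2 fold changes of 0.67 ± 0.04 and then 0.26 ± 0.04 (adjusted p = 2.41e-08 and 6.97e-05). *Ndufv1*, the flavoprotein that accepts electrons from NADH, went the same way with 0.35 and 0.30. *Ndufs1*, the largest iron-sulfur subunit, and *Ndufs8* rose with activation (0.34 and 0.63) and were not called between actB and Pb (0.01 and 0.18), where the replicate block calls *Ndufs8* (adjusted p = 0.00579). *Ndufs7* was at 51.6, 52.8 and 54.8 RPKM in nB, actB DMSO and Pb DMSO and was not called in any comparison. Without the merged nB library the activation difference of *Ndufs1* was 0.32 with an adjusted p of 0.067. Exons of *Ndufs1* and *Ndufs3* overlap exons of another gene, and use of the strand in counting is not given in the sources used here. Of the 82 members, 18 had exon overlap on the other strand and 3 on the same strand, with *Cox5a*, *Cox6c*, *Uqcrc2* and *Atp5o* among them.

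The 28 accessory subunits of complex I surround this core. After activation 23 of them were higher (82.1%, against 40.9% of all genes tested), with a median of 0.76. Between actB and Pb 11 were higher and 3 lower (39.3% and 10.7%, against 27.3% and 42.4% of all genes). *Ndufa1*, a small subunit of the membrane arm needed for assembly (mm9 chrX:34727583-34731158), had 46.8 and 48.4 RPKM in nB, 77.5, 66.6 and 65.7 in actB DMSO and 139.5, 165 and 142 in Pb DMSO. The Pb libraries were above all others, at 2.13 times the mean of actB DMSO, and the log2 fold change was 1.09 ± 0.08 (SE), adjusted p = 1.16e-07. *Ndufb6* had 30.6 and 30.4 RPKM in nB, 82.98, 70.8 and 87.8 in actB DMSO and 95.7, 87.7 and 112 in Pb DMSO. It rose by 1.39 ± 0.12 with activation (adjusted p = 3.00e-07), the largest rise among complex I members, and by 1.67 ± 0.12 in Pb against nB, and its exons overlap those of another gene. Its difference of Pb from actB, 0.29, lost its call without Pb DMSO replicate 1, Pb DMSO replicate 3 or actB DMSO replicate 2 (adjusted p = 0.0506, 0.135 and 0.122). *Ndufc2* was lowest in nB, highest in actB DMSO and between them in Pb DMSO, at 42.8 ± 2.04, 104 ± 11.5 and 73.5 ± 8.97 RPKM (SD). Its log2 fold change of Pb DMSO against actB DMSO was -0.49 ± 0.10 (SE), adjusted p = 5.86e-04. *Ndufv3*, the third subunit of that name, followed the same course with 1.05 (adjusted p = 1.26e-05) and -0.23 (adjusted p = 0.112), the second of which passed only with the replicate block (adjusted p = 0.0353). *Ndufa12* had the highest mean of complex I in actB DMSO (133 RPKM) but not in nB (56.4) or Pb DMSO (118), and *Ndufa11* had the lowest in each (5.06, 7.299 and 10.5 RPKM in nB, actB DMSO and Pb DMSO).

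**Figure D4:**
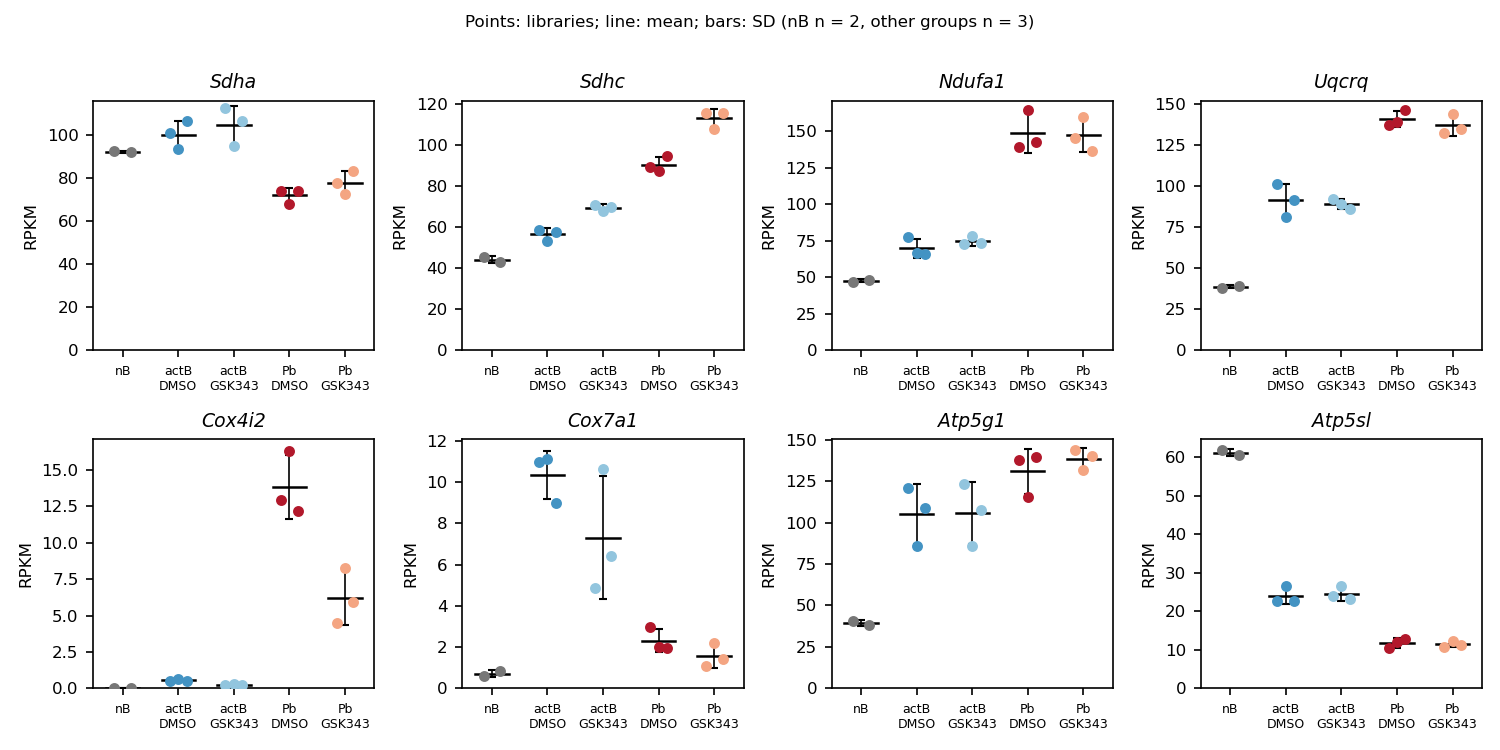
RPKM in every library for *Sdha*, *Sdhc*, *Ndufa1*, *Uqcrq*, *Cox4i2*, *Cox7a1*, *Atp5g1* and *Atp5sl*, with groups along the horizontal axis, 1 point per library, a line at each group's mean and bars of 1 SD. *Ndufa1* and *Cox4i2* are highest in Pb, *Cox7a1* in actB, and *Atp5sl* in nB.

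Complex II, succinate dehydrogenase, also serves the TCA cycle and all its subunits are nuclear. Its 4 genes moved differently from one another. *Sdha*, the flavoprotein that oxidizes succinate (mm9 chr13:74459702-74487728), had 92.2 and 91.7 RPKM in nB, 100.5, 93.2 and 106 in actB DMSO and 73.9, 67.7 and 73.7 in Pb DMSO. All 3 Pb libraries were below every actB DMSO and nB library, with log2 fold changes of -0.47 ± 0.07 against actB DMSO (adjusted p = 8.32e-05) and -0.36 ± 0.08 against nB (adjusted p = 0.00135). The activation step gave 0.12 ± 0.08 (adjusted p = 0.205). *Sdhb*, the iron-sulfur subunit that passes the electrons on, was at 62.3 ± 2.22 RPKM (SD, n = 2) in nB, 92.7 ± 6.41 (n = 3) in actB DMSO and 103 ± 6.83 (n = 3) in Pb DMSO. It rose by 0.57 with activation (adjusted p = 1.75e-05) and the difference of Pb from actB, 0.15, did not pass (adjusted p = 0.0636, but 0.00709 with the replicate block).

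The membrane anchors of complex II, which hold the ubiquinone site, went opposite ways between actB and Pb. *Sdhc* (mm9 chr1:173057296-173080734) had 45.2 and 42.8 RPKM in nB, 58.5, 53.03 and 57.7 in actB DMSO and 89.1, 87.1 and 94.5 in Pb DMSO, each group above the former without overlap. Its log2 fold changes were 0.36 ± 0.06 with activation (adjusted p = 9.80e-05) and 0.68 ± 0.05 from actB to Pb (adjusted p = 1.41e-07). *Sdhd* had 40.3 and 43.8 RPKM in nB, 91.7, 78.2 and 92.7 in actB DMSO and 68.8, 61.9 and 72.1 in Pb DMSO. It rose by 1.05 ± 0.10 (adjusted p = 8.48e-07) and then changed by -0.37 ± 0.09 (adjusted p = 0.00272), with Pb between the other groups.

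In complex III, *Uqcrfs1*, the Rieske iron-sulfur protein that takes electrons from ubiquinol, was at 59.1 ± 1.47, 82.6 ± 5.97 and 98.9 ± 7.72 RPKM (SD) in nB, actB DMSO and Pb DMSO. It rose at both steps, by 0.48 (adjusted p = 1.78e-04) and 0.26 (adjusted p = 0.00798). The core proteins *Uqcrc1* and *Uqcrc2* had smaller differences. Without the replicate block *Uqcrc1* was not called in any comparison of stages (0.28 with activation, adjusted p = 0.0572), and *Uqcrc2* had 0.52 (adjusted p = 6.31e-05) and then -0.25 (adjusted p = 0.00672, but 0.0679 under median scaling). *Uqcrq*, a small subunit beside cytochrome b (mm9 chr11:53241424-53244333), had 38.1 and 39.2 RPKM in nB, 101, 81.05 and 91.3 in actB DMSO and 138, 139 and 146 in Pb DMSO. The groups did not overlap, Pb stood at 3.65 times nB, and the log2 fold changes were 1.23 ± 0.08 (adjusted p = 1.67e-08) and 0.63 ± 0.07 (adjusted p = 4.21e-06). *Uqcrh*, the hinge protein, had the highest level of the complex (208, 226 and 255 RPKM), with 0.18 between actB and Pb (adjusted p = 0.00431, but 0.197 with the length trend removed), and *Uqcr11* had the lowest (32.3, 50.9 and 72.4 RPKM).

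Complex IV, cytochrome c oxidase, has ubiquitous subunits and tissue isoforms. All 11 ubiquitous members, *Ndufa4* included, were higher in actB DMSO than in nB (40.9% of all genes tested), with a median of 0.68. *Cox5a*, one of the first nuclear subunits to join the complex, had 65.3 and 74.5 RPKM in nB, 164, 163 and 173 in actB DMSO and 159, 155 and 166 in Pb DMSO, an activation difference of 1.25 ± 0.06 (SE, adjusted p = 1.64e-09). Between actB and Pb it gave -0.06 (adjusted p = 0.366) with overlapping groups. Only *Cox6a1* and *Cox7c* of the 11 were called at that step, both higher (18.2%, against 27.3% of all genes tested). Their values were 0.37 and 0.28 (adjusted p = 4.73e-04 and 0.00744). The replicate block adds *Cox7a2* (0.25, adjusted p = 0.00421) and *Ndufa4* (0.17, adjusted p = 0.0124). *Cox4i1*, which holds a regulatory site of the enzyme, was the most abundant member of the complex per length, at 231 ± 6.79, 361 ± 28.9 and 389.6 ± 23.9 RPKM (SD). *Cox5b* and *Cox6c* rose by 0.68 and 0.89 with activation.

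The isoform *Cox4i2* (mm9 chr2:152579909-152590773), known from lung and from cells under low oxygen, was the member with the largest difference between plasmablasts and activated B cells. It had no reads in either nB library. In actB DMSO it had 0.483, 0.617 and 0.519 RPKM, from 10 to 13 reads per library, and in Pb DMSO 12.96, 16.3 and 12.2 RPKM, from 220 to 291 reads. All Pb DMSO libraries were above all actB DMSO libraries, with a log2 fold change of 4.15 ± 0.18 (SE), adjusted p = 8.11e-10. *Cox4i2* passed the expression filter through Pb libraries alone, so its place among the tested members depends on the group where it was high. Against 3 reads per library in nB, Pb DMSO was at least 91.97-fold higher and actB DMSO at least 3.6-fold higher. Even in Pb DMSO *Cox4i2* made up 3.45% ± 0.745 (SD, n = 3) of the summed RPKM of *Cox4i1* and *Cox4i2*, and 0.151% ± 0.0317 in actB DMSO.

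*Cox7a1*, the heart and muscle form of a subunit at the dimer interface (mm9 chr7:30969190-30971047), peaked in activated B cells. It had 0.593 and 0.836 RPKM in nB, 10.96, 11.1 and 9.01 in actB DMSO and 2.95, 2.005 and 1.97 in Pb DMSO, and no groups overlapped. The log2 fold changes were 3.46 ± 0.30 with activation (adjusted p = 3.88e-07) and -2.07 ± 0.27 from actB to Pb (adjusted p = 2.22e-05). It remained a small part of its family, at 3.27% ± 0.301 of the summed RPKM in actB DMSO. *Cox7a2*, the form of most tissues, made up 22.9% ± 2.49 in nB, 36.6% ± 4.06 in actB DMSO and 47.2% ± 3.79 in Pb DMSO. *Cox7a2l*, which links complexes III and IV and is found in C57BL/6 mice in a shortened form, made up 76.8% ± 2.57, 60.1% ± 3.88 and 52% ± 3.74. Its own level was 187 ± 12.2, 190.5 ± 15.3 and 151 ± 5.63 RPKM, with a log2 fold change of Pb against actB of -0.33 ± 0.08 (SE), adjusted p = 0.00384. Against nB it was -0.30 ± 0.09 (adjusted p = 0.01, but 0.0998 without the merged nB library).

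The remaining isoforms were scarce. *Ndufa4l2*, a relative of *Ndufa4* known to be induced by hypoxia, had no reads in nB, 0.176, 0.301 and 0.257 RPKM in actB DMSO (4 to 7 reads) and 1.23, 1.02 and 0.949 in Pb DMSO (19 to 23 reads). The Pb libraries were above all actB libraries (1.41 ± 0.23 (SE), adjusted p = 1.59e-04) and at least 7.82-fold above 3 reads per library in nB. *Ndufa4l2* passed the expression filter through Pb libraries alone, so its place among the tested members depends on the group where it was high. An exon of *Ndufa4l2* overlaps *Shmt2* on the other strand, and *Shmt2* itself had 30.8 to 35.2 RPKM in nB, 105 to 158 in actB DMSO and 154 to 174 in Pb DMSO, so that reads of *Shmt2* in this value were not separated. *Cox6a2*, the muscle form of *Cox6a1*, whose exons overlap *Itgad*, lay between 2.38 and 2.76 RPKM in the means of nB, actB DMSO and Pb DMSO and was not called. *Cox6b2*, the testis form of *Cox6b1*, was called in Pb DMSO against nB (1.13 ± 0.29 (SE), adjusted p = 0.00273) at 0.538 to 1.33 and 1.68 to 2.81 RPKM, a call lost without the merged nB library (adjusted p = 0.0701). *Cox8b* had no reads in nB or actB DMSO and at most 0.270 RPKM in Pb. The common forms *Cox6a1*, *Cox6b1*, *Cox7b* and *Cox8a* rose with activation by 0.56, 0.65, 1.18 and 0.53.

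In complex V, 4 of 5 members of the F1 head, where ATP is made, were higher after activation (40.9% of all genes tested). *Atp5b*, the catalytic beta subunit and the complex V member with the highest level, had 269.8 and 263 RPKM in nB, 534, 478 and 562 in actB DMSO and 487, 423 and 512 in Pb DMSO. The nB libraries were below all others, with 0.97 ± 0.11 (adjusted p = 2.98e-06), and Pb overlapped actB (-0.15, adjusted p = 0.185, but 0.0142 with the replicate block). *Atp5a1*, the alpha subunit, rose by 0.76 and then changed by -0.28 (adjusted p = 0.00556), and *Atp5c1*, the rotating gamma subunit, by 0.66 and -0.22 (adjusted p = 0.00698). Under median scaling these falls from actB to Pb did not pass (adjusted p = 0.056 and 0.102). *Atp5d*, the delta subunit, rose by 0.37 (adjusted p = 1.52e-04), and its exons overlap another gene. In the peripheral stalk, which holds the head in place, all 4 members were higher after activation. *Atp5h* and *Atp5o* were also higher in Pb than in actB (27.3% of all genes tested). *Atp5o* was at 98.99 ± 2.57, 196 ± 23.2 and 234 ± 12.5 RPKM (SD) in nB, actB DMSO and Pb DMSO, and its call between actB and Pb was lost without actB DMSO replicate 2 (0.16, adjusted p = 0.0609) and without Pb DMSO replicate 3 (0.23, adjusted p = 0.0541). Exons of *Atp5o* overlap *Donson* on the same strand and further genes on the other strand. *Atp5j2* had the lowest level of the complex, 20.7, 38.9 and 47.5 RPKM.

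The c ring of the ATP synthase is built from 1 mature protein that 3 genes encode with different import sequences. *Atp5g1* (mm9 chr11:95930166-95936984) had 40.8 and 38.2 RPKM in nB, 121, 85.8 and 109 in actB DMSO and 138, 115 and 139.9 in Pb DMSO. The cultured libraries were above nB throughout and those of actB and Pb overlapped, with 1.395 ± 0.15 for activation (adjusted p = 3.26e-06) and 0.32 ± 0.14 for the next step (adjusted p = 0.0522, but 0.0022 with the replicate block). *Atp5g3* rose at both steps, by 1.01 and 0.34 (adjusted p = 0.00966 for the second), whereas *Atp5g2* rose by 0.43 and then gave -0.05 (adjusted p = 0.387). Of their summed RPKM *Atp5g1* made up 12% ± 0.181 in nB, 18.3% ± 2.02 in actB DMSO and 20.1% ± 1.0 in Pb DMSO. *Atp5g2* made up 52.6% ± 2.0, 40.7% ± 2.65 and 34.6% ± 2.03, so that it held most of the sum in nB, and *Atp5g3* 35.4% ± 2.18, 41% ± 2.11 and 45.3% ± 1.800, the largest share in Pb. These shares were not tested, and reads that the near-identical coding parts of the 3 genes share may have been split between them.

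The 2 genes that carry the prefix alone went the other way. *Atp5sl*, also known as an assembly factor of complex I (mm9 chr7:26404433-26410570), had 61.8 and 60.6 RPKM in nB, 22.7, 26.5 and 22.7 in actB DMSO and 10.4, 12.1 and 12.7 in Pb DMSO. It fell at each step without overlap, with log2 fold changes of -1.35 ± 0.10 (adjusted p = 5.52e-08) and -1.02 ± 0.09 (adjusted p = 3.96e-07). *Atp5s* was at 4.75 ± 0.371, 5.38 ± 0.323 and 3.22 ± 0.18 RPKM (SD) and was lower in Pb than in actB (-0.70 ± 0.10 (SE), adjusted p = 3.27e-05).

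GSK343 was then set against DMSO within each cell type. The labels name Il6 in place of Il5 for the Pb GSK343 libraries. If that is right, GSK343 and this cytokine cannot be told apart in Pb or in the difference between cell types. In actB, 2 members were higher (8.2% of all genes tested), 1 was lower (2.16% of all genes) and 78 were not called. The median was 0.03 for the members and 0.03 over all genes tested, with 56 of 81 and 6524 of 11299 values above 0. In Pb, 1 member was higher (7.9% of all genes), 1 lower (5% of all genes) and 79 not called, with a median of 0.07, against 0.0031 over all genes tested. Of the 81 values in Pb 64 were above 0 (5738 of 11299 over all genes tested), and the medians of complexes I to V lay between 0.06 and 0.11. Without 1 library at a time the median of the members in Pb lay between 0.04 and 0.10. The members' median log2 level per library had a pooled within-group SD of 0.09. It ran from 6.50 to 6.70 in Pb DMSO and from 6.69 to 6.79 in Pb GSK343. With the replicate number as a block 7 members were higher and 2 lower in actB (14.7% and 6.24% of all genes), and 6 higher and 1 lower in Pb (13.6% and 10.7% of all genes). In actB, the block added *Ndufa4*, *Cox7a2*, *Uqcr10*, *Atp5g3* and *Atp5e* as higher, with log2 fold changes of 0.17 to 0.24, and *Cox6a2* as lower, with -1.103. In Pb it added *Cox5b*, *Cox6a1*, *Ndufa4*, *Cox8a* and *Uqcr10* as higher, with 0.14 to 0.22.

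*Sdhc* was the one member called higher with GSK343 in both cell types without the block, and with it *Ndufa4* (adjusted p = 0.0471 in actB and 0.0477 in Pb) and *Uqcr10* (adjusted p = 0.011 and 0.00882) were too. In actB *Sdhc* had 58.5, 53.03 and 57.7 RPKM with DMSO and 70.9, 67.8 and 69.5 with GSK343. In Pb it had 89.1, 87.1 and 94.5 with DMSO and 116, 108 and 116 with GSK343. The libraries with GSK343 lay above those with DMSO without overlap in both cell types, by 0.30 ± 0.05 (SE), adjusted p = 0.00386 in actB and 0.32 ± 0.05 (SE), adjusted p = 0.00207 in Pb on the log2 scale. Both calls held in each of the 20 alternative settings run on them, including edgeR on the reads and each library left out in turn. The other subunits of complex II were not called, with 0.06 and 0.11 for *Sdha*, 0.03 and 0.09 for *Sdhb* and 0.02 and 0.10 for *Sdhd* in actB and Pb.

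*Cox4i2* was lower with GSK343. In Pb it had 12.96, 16.3 and 12.2 RPKM with DMSO and 4.52, 8.24 and 5.96 with GSK343, without overlap, at 0.452 times the DMSO mean (-1.15 ± 0.18 (SE), adjusted p = 0.00179). This call held in each of the 20 alternatives. In actB it had 0.483, 0.617 and 0.519 RPKM with DMSO and 0.218, 0.278 and 0.244 with GSK343 (-0.67 ± 0.18 (SE), adjusted p = 0.0318). Each GSK343 library held 5 to 6 reads of it. The GSK343 mean was 0.457 times the DMSO mean, and the pseudocount shrinks the log2 value at such levels (edgeR with TMM factors gave -1.15). With the replicate block the call in actB was kept (adjusted p = 0.0064). It was lost in 9 of 20 alternatives (adjusted p up to 0.233), among them without any 1 of the 3 DMSO libraries or GSK343 replicate 1 or 3 (-0.60 to -0.72, adjusted p = 0.0636 to 0.0944). Its share of the summed *Cox4i1* and *Cox4i2* RPKM in Pb was 3.45% ± 0.745 with DMSO and 1.55% ± 0.459 with GSK343. In the same Pb libraries the 5 plasmablast markers summed to 1412 to 1538 RPKM with DMSO and 1481 to 1569 with GSK343, which overlap, and they did not move together. *Sdc1*, which encodes CD138, was at 28.8 to 30.4 and 53.3 to 58.8 RPKM, *Irf4* at 358 to 391 and 300.3 to 323 and *Prdm1* at 116 to 126 and 112 to 124. The 6 B cell markers summed to 922 to 942 RPKM with DMSO and 753 to 894 with GSK343, with *Pax5* at 25.2 to 31.5 and 9.28 to 18.6. The part of these shifts in the member values was not tested.

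*Ndufb2*, an accessory subunit of complex I, was the other member higher in actB, with 45.4, 41.01 and 44.6 RPKM with DMSO and 51.2, 49.8 and 51.7 with GSK343 (0.22 ± 0.06 (SE), adjusted p = 0.0445). With the replicate block the call was kept (adjusted p = 0.0196). It was lost in 13 of 20 alternatives, among them without any 1 of the 6 actB libraries (0.18 to 0.25, adjusted p = 0.0598 to 0.135). Exons of *Ndufb2* overlap those of *Braf* and *Adck2*. The myeloid markers summed to 4.12 to 5.44 RPKM in actB DMSO and 8.31 to 14.1 in actB GSK343, of which *Itgam* took 3.51 to 4.66 and 6.60 to 12.8, while *S100a8* and *S100a9* were at 0. Their part in the values of actB was not tested.

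The effect of GSK343 was not shown to differ between the cell types for any member. In the test of the difference, Pb minus actB, limma called 0 of the 81 members (0.248% of all genes tested), 0 had an unadjusted p under 0.05, and edgeR called 0 as well. With the replicate block 3 had an unadjusted p under 0.05 and with replicate 2 left out of every cultured group 4 had, and none was called (smallest adjusted p = 0.134 and 0.211). *Cox4i2* gave -0.48 ± 0.25 (SE), adjusted p = 0.641, and *Sdhc* 0.02 ± 0.07 (SE), adjusted p = 0.994. The ratio of the *Cox4i2* means was 0.457 in actB and 0.452 in Pb, and the pseudocount shrinks the first on the log2 scale.

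**Figure D5:**
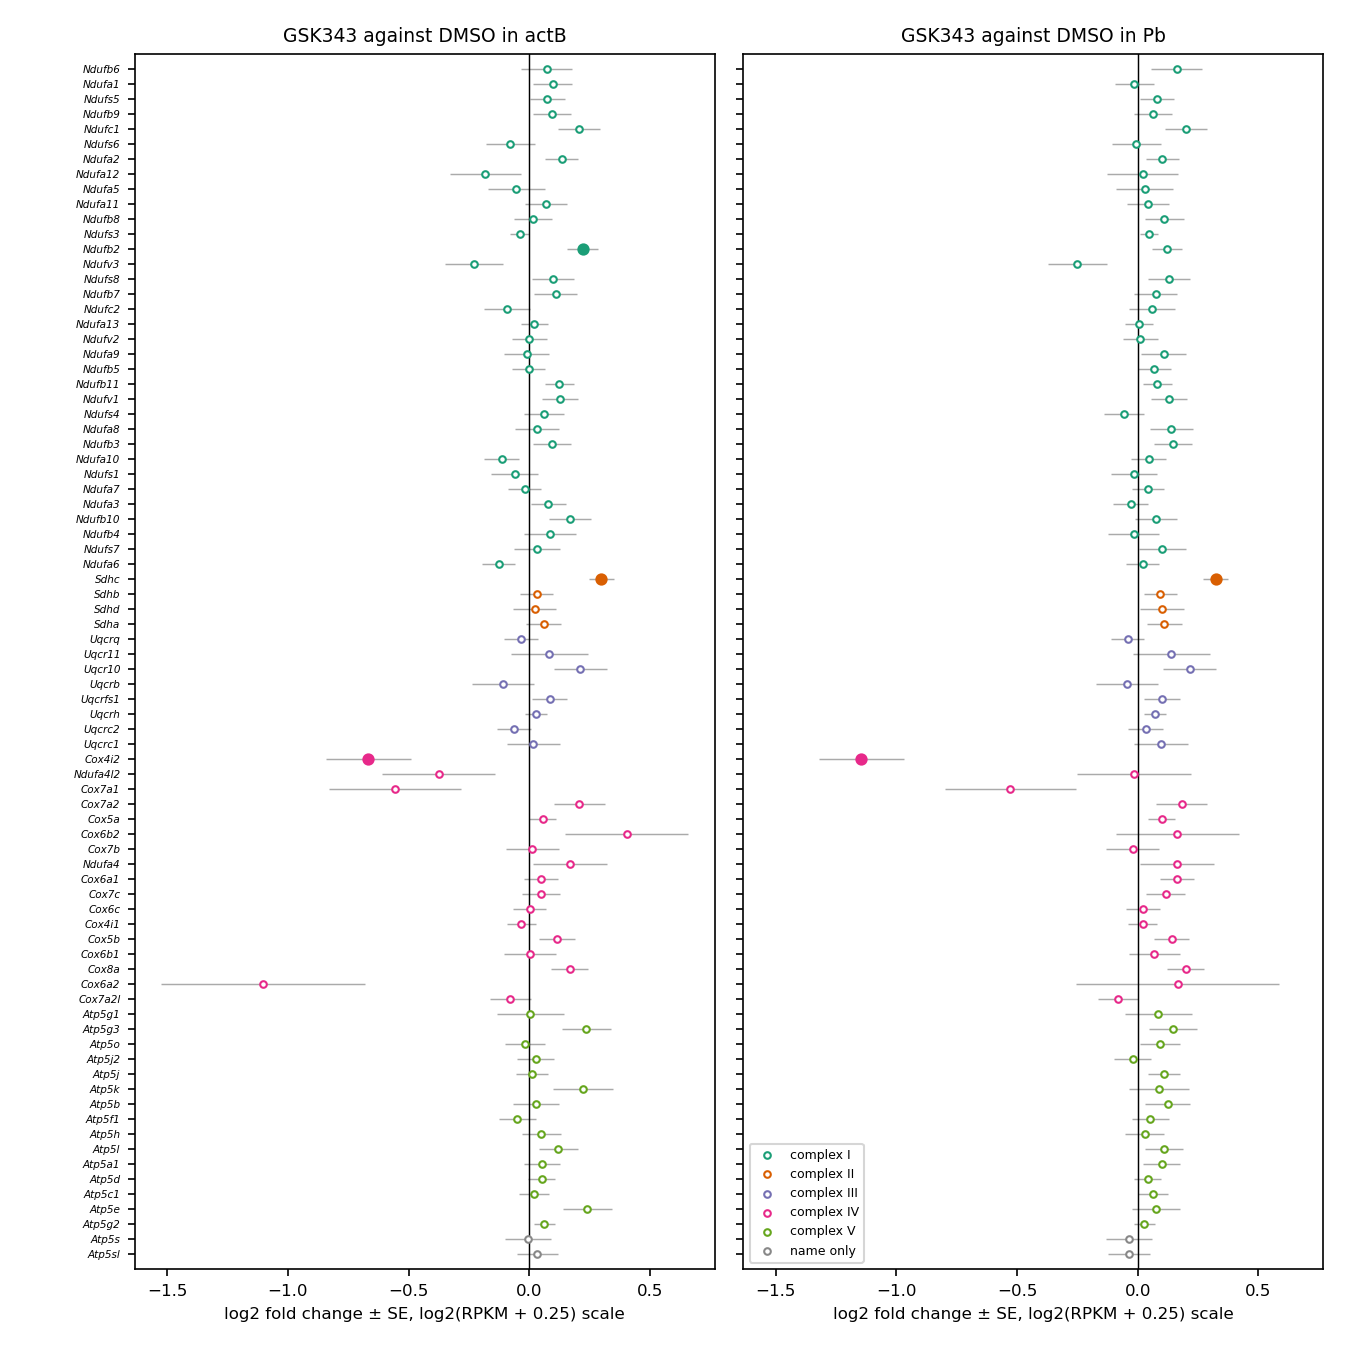
Log2 fold change of 80 members between GSK343 and DMSO, with 1 panel for actB and 1 for Pb, by complex, with bars of 1 SE and filled points for calls of the fit without a block. *Sdhc* lies to the right in both panels and *Cox4i2* to the left, while the scarce isoforms *Cox6a2*, *Cox6b2* and *Cox7a1* have the widest bars and were not called.

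Other genes of the pathway were read from the same fit. Of 10 tested electron carriers and subunits outside the name pattern, 9 were higher and 1 lower in actB DMSO against nB, with a median of 0.79. These shares were 90% and 10%, against 40.9% and 36.3% of all genes tested. *Cycs*, cytochrome c, had 22.6 and 22.7 RPKM in nB, 73.2, 52.99 and 68.99 in actB DMSO and 62.4, 56.8 and 65.8 in Pb DMSO, above nB in each cultured library (1.497 ± 0.12 (SE), adjusted p = 2.21e-07). Between actB and Pb 3 of these genes were higher and 1 lower (30% and 10%, against 27.3% and 42.4% of all genes). *Nnt*, a proton-driven transhydrogenase of which C57BL/6J mice carry a truncated allele, rose by 0.997 ± 0.07 (SE), adjusted p = 7.40e-08. With GSK343 *Nnt* was the one gene of this list called, at 0.32 ± 0.07 (SE), adjusted p = 0.0139 in actB and 0.33 ± 0.07 (SE), adjusted p = 0.0108 in Pb.

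Of 43 tested assembly factors, which build the complexes without staying in them, 30 were higher and 5 lower after activation (69.8% and 11.6%, against 40.9% and 36.3% of all genes tested, median 0.43). In Pb DMSO against actB DMSO 6 were higher and 20 lower (14% and 46.5%, against 27.3% and 42.4% of all genes, median -0.20). *Sco1*, a copper chaperone of complex IV, rose at both steps, by 1.53 ± 0.17 and 0.75 ± 0.15 (adjusted p = 2.85e-06 and 6.47e-04). *Ndufaf6*, a complex I assembly factor, gave 0.92 ± 0.17 after activation and -1.33 ± 0.15 from actB to Pb (adjusted p = 2.29e-04 and 4.61e-06). Of the 20 genes of the TCA cycle and of pyruvate import and oxidation, 17 were higher after activation and 3 were not called (median 0.46). The share higher was 85%, against 40.9% of all genes. Between actB and Pb 4 of the 20 were higher and 12 lower (20% and 60%, against 27.3% and 42.4% of all genes, median -0.28). *Idh3a*, the catalytic subunit of NAD-dependent isocitrate dehydrogenase, was at 16.6 ± 1.15, 41.5 ± 7.77 and 23.6 ± 3.52 RPKM (SD) in nB, actB DMSO and Pb DMSO, with 1.29 and -0.80. Between actB and Pb the medians of these 2 lists were thus below that of all genes tested (-0.12) and that of the subunits (0.05) above it, which was not tested. With GSK343 in actB, the mitochondrial pyruvate carrier gene *Mpc2* (0.43 ± 0.08, adjusted p = 0.00509) and *Idh2* (0.27 ± 0.05, adjusted p = 0.00556) were higher and *Cox18*, which inserts a complex IV subunit into the membrane, was lower (-0.28 ± 0.08, adjusted p = 0.0398). In Pb, *Idh2* (0.30) and *Cox15* (0.15) were higher and *Cox20* (-0.27) lower (adjusted p = 0.00245, 0.04 and 0.0276).

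Among the genes outside the members, 3 had log2 levels that followed the mean log2 level of the members most closely. *Psma7*, a subunit of the 20S proteasome, had a Pearson r of 0.996 over the 14 libraries, *Ube2t*, a ubiquitin-conjugating enzyme, 0.994 and *Pam16*, of the mitochondrial import motor, 0.994. Over the 12 cultured libraries r was 0.959, 0.946 and 0.969. The libraries are shared by all these values and nB stands apart from the rest, so these are descriptions of likeness only. *Psma7* had 98.9 and 106 RPKM in nB, 226, 182 and 209 in actB DMSO and 228, 215 and 240.4 in Pb DMSO.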

How the data were processed

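RNA was sequenced in 15 libraries of 5 groups. Reads were mapped by the authors to mm9 with TopHat2 and counted over exons of UCSC Known Genes, and values were deposited as RPM (reads per 1000000 counted, in columns that sum to 1000000), although named for RPKM, with gene lengths. Of the RPM values 100% were whole multiples of 1 read, so reads could be recovered. The 92 rows without a symbol were left out of the tests, and they held at most 0.0905% of reads.

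RPKM were computed from RPM and length, and log2(RPKM + 0.25) was fitted over 11299 genes and all groups (limma 3.58.1 in R 4.3.3, eBayes with a trend, Benjamini-Hochberg adjustment). The pseudocount shrinks fold changes of low genes. The merged nB library is the mean of replicates 1 and 2. edgeR 4.0.16 on the reads was an alternative. The fit was also run on simulated counts without replicate effects, which cannot show how it behaves on these libraries. Same-numbered cultured libraries deviated together (r = 0.158 to 0.502 for number 1, 0.435 to 0.713 for 2 and 0.219 to 0.356 for 3, 6 pairs each, against -0.603 to 0.370 over 36 pairs of different numbers), so a fit with the number as a block was set beside.

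Genes named with values were central subunits, isoforms, the 4 called members with the largest rise or fall per comparison of stages, every member called with GSK343, those that failed the filter or bear the prefix only, the highest and lowest of each complex, and 3 genes most like the members. Members and lists were chosen with earlier results of these data known. Counting intervals and floors cover counting error only. The values of 1 member are not reported here, and it is left out of the plots that name each gene.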

Additional observations from a re-analysis of the deposited data

How the results depend on the processing

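In 29 alternative settings, of the 127 results for single named genes 108 were called throughout, 18 lost their call at least once and 2 changed sign (*Uqcrh* did both), namely *Uqcrh* (-0.11, adjusted p = 0.0372) and *Atp5g2* (-0.012, adjusted p = 0.841) in Pb DMSO against nB once the trend with length was removed. That setting also gave 7 lower members in actB DMSO against nB (median 0.43) and 9 in Pb DMSO against nB (median 0.48). Quantile normalization gave 2 lower members in actB DMSO against nB and a median of 0.64 in Pb DMSO against nB. The median of Pb DMSO against actB DMSO was 0.16 with edgeR and RLE factors and 0.17 with median scaling. For GSK343 in actB, the higher members numbered 1 with the compared groups alone, without the eBayes trend, with edgeR (TMM or RLE), with median scaling and without the filter, and 7 with the replicate block. The lower ones numbered 0 with edgeR (TMM or RLE), without the filter and with a pseudocount of 1, 2 with the block and 4 with replicate 2 left out of every cultured group. In Pb, 6 were higher with the block, and 2 higher and 3 lower without replicate 2. Between Pb and actB the block gained calls only. Against nB it gave 72 higher and 1 lower members in actB DMSO and 73 and 4 in Pb DMSO, adding calls for *Uqcrc1*, *Uqcrh*, *Sdha* and *Cox6b2* (adjusted p = 0.00717, 0.00701, 0.0392 and 0.00714) among others in the first, but there nB replicates 1 and 2 enter as separate columns and pairing was not checked for nB. It changed no direction of a call. The cause was not tested.

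Leaving out 1 library at a time gave 65 to 69 higher and 1 lower members in actB DMSO against nB (median 0.60 to 0.73), 23 to 33 and 14 to 17 in Pb DMSO against actB DMSO (-0.01 to 0.12), and 68 to 72 and 3 to 4 in Pb DMSO against nB (0.74 to 0.82). It gave 1 higher and 0 to 3 lower with GSK343 in actB (-0.02 to 0.07; 0 lower without any 1 of the DMSO libraries or GSK343 replicates 1 and 3, and 3 without GSK343 replicate 2), 1 to 2 and 1 in Pb (0.04 to 0.10), and a median of -0.02 to 0.08 for the difference of the effects. edgeR with TMM factors called 816 higher and 426 lower of 11147 genes with GSK343 in actB, and 866 and 635 in Pb. *Cox4i2* in actB rests on 5 to 13 reads per library, too few for a firm value. With 2 nB libraries the spread of that group rests on 1 difference and on the pooled estimate.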

Other observations

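Enzymes of coenzyme Q synthesis, which supply the carrier between complexes I or II and III, were set against all genes tested. Of 12 of these tested, 6 were higher and 2 lower in actB DMSO against nB (50% and 16.7%, against 40.9% and 36.3% of all genes, median 0.24), and 2 were higher and 5 lower in Pb DMSO against actB DMSO (16.7% and 41.7%, against 27.3% and 42.4%, median -0.10). *Pdss1*, which makes the isoprenoid tail, had 1.55 and 1.74 RPKM in nB, 9.51, 7.79 and 9.64 in actB DMSO and 3.93, 3.04 and 3.91 in Pb DMSO, highest in actB without overlap, with log2 fold changes of 2.28 ± 0.12 and -1.25 ± 0.10 (SE, limma adjusted p = 2.14e-09 and 3.12e-07). *Coq9* was the one gene of this list called with GSK343, higher in Pb by 0.24 ± 0.05 (SE), adjusted p = 0.0117.

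Of 15 tested regulators of mitochondrial genes, 6 were higher and 4 lower in actB DMSO against nB (40% and 26.7%, against 40.9% and 36.3%, median -0.0016), and 1 was higher and 11 lower in Pb DMSO against actB DMSO (6.67% and 73.3%, against 27.3% and 42.4%, median -0.26). *Esrra*, a nuclear receptor that acts on respiratory genes, was at 10.5 ± 0.0943, 6.82 ± 0.67 and 4.69 ± 0.333 RPKM (SD) in nB, actB DMSO and Pb DMSO, and *Myc* at 72.03 ± 15.3, 33.8 ± 1.221 and 21.1 ± 1.73. Both were lower at each step, with log2 fold changes of -0.61 and -0.51 for *Esrra* and -1.07 and -0.68 for *Myc* (adjusted p = 1.26e-04, 2.72e-04, 2.59e-06 and 7.84e-05). *Ppargc1b*, a coactivator of respiratory genes, had 1.46, 1.296 and 1.62 RPKM in Pb DMSO and 3.12, 2.49 and 2.798 in Pb GSK343, higher without overlap by 0.84 ± 0.11 (SE), adjusted p = 8.51e-04, the one regulator called with GSK343.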
